A study of Drosophila melanogaster with 24 samples.

Results

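Named genes in pericentromeric sequence were examined in Drosophila melanogaster larvae that carry arginine in place of lysine 9 of histone H3 (K9R). Members were the transcribed loci whose midpoint lay on 2L from 22 Mb, on 3L from 23 Mb, on 3R up to 4.6 Mb or on X from 23 Mb (dm6), and which shared at least 50% of their joint span with a single annotated gene. The genes Marf1, Parp1, CG40160, CG41099, FucTC, Snap25, nvd, spok and AGO3 met the positions but were left out by the same rule. This gave 129 members of 10253 RNA loci, with 33 on 2L, 34 on 3L, 51 on 3R and 11 on X. By RefSeq's Release 6 table, 108 were protein-coding and 17 were long non-coding RNAs, and the others were an antisense RNA, a pseudogene, an rRNA and an rRNA pseudogene. Of the members, 38 lay in a locus that overlapped 2 or more genes, so reads of such neighbours cannot be told apart.

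The series held 24 libraries, 12 of RNA and 12 of open chromatin, with 3 per genotype. RNA came from whole larvae of the 1st instar, and every RNA genotype lacked the endogenous canonical histone genes. The control, HWT, carried an array with 12 copies of the wild-type canonical histone genes. H3.2-K9R larvae carried the 12-copy array with the K9R change and are called canonical K9R here. H3.3-K9R_H3.2-HWT larvae, called H3.3 K9R, had K9R in H3.3B, no functional H3.3A and the wild-type array. H3.3-K9R_H3.2-K9R larvae, called combined K9R, had the same H3.3 alleles with the K9R array. A transgenic array stands in for a much larger endogenous cluster in all of these larvae, and the H3.3 K9R and combined genotypes carry loss of H3.3A as well as the point mutation. FAIRE, an assay that extracts the DNA formaldehyde leaves free of nucleosomes, gave open chromatin in wing discs dissected at the wandering stage of the 3rd instar. The discs were from yw wild type, H3.3A null, H3.3B with an endogenous K9R mutation, and the H3.3-K9R double mutant of both.

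Pericentromeric heterochromatin is rich in repeats and carries methylated H3K9, which the protein HP1a binds. Lysine 9 must be present for that mark to be made. Although such chromatin silences many genes placed next to it, some genes live there natively, and light (lt), which encodes a subunit of the HOPS vesicle-tethering complex, is a classic case whose expression in flies is disturbed when it is moved away from heterochromatin. Many of these resident genes have large introns filled with transposon remnants, while others are short housekeeping genes.

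All values were read from the authors' deposited tables, which compare each mutant with HWT and list no value per library, so values of single larval samples and depth per library are unknown. A locus was called when its adjusted p in the authors' deposited table (DESeq2 Wald test) was under 0.05, and errors are the deposited standard errors (SE) of the log2 fold change with 3 libraries per genotype. The deposited errors never exceeded 0.306, and fold changes of loci with few reads may be understated. The 3 RNA comparisons share the HWT libraries, and the labels do not say whether libraries came from separate crosses, so a p-value here covers the spread among the libraries and no more. The locus of His3.3A also holds Nepl3, and its log2 fold change was −0.34 ± 0.21 in canonical, −0.55 ± 0.21 in H3.3 and −0.82 ± 0.21 in combined K9R (adjusted p = 0.696, 0.132 and 8.4e-04 in the authors' deposited tables). That locus does not check the H3.3A allele on its own. Of 17 tissue markers chosen for whole larvae, 14 matched a named locus, among them muscle Mhc at a mean normalized count of 39768.8 and neuronal nSyb at 1930.5. Of the fat body genes apolpp was at 8247.3, Lsp2 at 4.93 and Fbp1 at 1.63. In discs, vg, nub and ap overlapped 7, 8 and 4 FAIRE regions.

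Most members kept an RNA level that could not be told from that of HWT in canonical or H3.3 K9R larvae, and the number called was larger when both histones carried the mutation. In canonical K9R, 5 of 112 members tested were called (4.46%), where 3.55% of all loci tested were called. Of these, 2 rose (1.79%, against 3.04% of all loci called higher) and 3 fell (2.68%, against 0.505% called lower). In H3.3 K9R, 3 of 107 members were called (2.80%, against 4.31% of all loci), with 2 higher (1.87%, against 2.66%) and 1 lower (0.935%, against 1.65%). In combined K9R, 29 of 107 members were called (27.1%, against 25.0% of all loci), a share near the background. By direction, 7 rose (6.54%, against 11.4%) and 22 fell (20.6%, against 13.6%). All loci also take in unnamed ones. Named loci of the arms, outside pericentromeric sequence, were called at 1.13%, 2.95% and 22.3% in canonical, H3.3 and combined K9R. Of these arm loci, 0.691% were called higher and 0.442% lower in canonical K9R. The shares were 1.27% and 1.68% in H3.3 K9R, and 8.14% and 14.2% in combined K9R. Members were not tested against them.

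The median log2 fold change of the members in combined K9R was −0.08 and that of all loci was 0.00. Members were therefore called about as often as other loci in combined K9R, with more calls below HWT than above it. That likeness holds for the set without the 9 genes left out by the rule. With those 9 put back, 11 of 121 were called in canonical K9R (9.09%, against 3.55% of all loci). In H3.3 K9R 5 of 116 were called (4.31%, against 4.31%), and in combined K9R 37 of 116 (31.9%, against 25.0%). Thus 6, 2 and 8 of those 9 were themselves called. Of the 14 tissue markers, Mhc, Lsp2 and Fbp1 had no adjusted p in any comparison, and Lcp1 had none in H3.3 or combined K9R. All loci were called at shares of 3.55%, 4.31% and 25.0% in canonical, H3.3 and combined K9R. In combined K9R 3 markers were called. Germline vas fell by 0.72 and gut Jon65Ai fell by 0.86, and muscle up rose by 0.30 on the log2 scale (adjusted p = 4.2e-06, 1.7e-04 and 0.0404, authors' deposited table, DESeq2). In H3.3 K9R 2 were called, with fat body apolpp higher by 0.62 and cuticle Cpr49Ac at −1.16 (adjusted p = 0.0089 and 0.00442, authors' deposited table, DESeq2). In canonical K9R 1 was called, cuticle Lcp1 at 0.84 on a mean normalized count of 5.25, in the authors' deposited table. The part of tissue makeup in the members' changes was not tested, and fewer cells of a type and less RNA per cell cannot be told apart in whole larvae.

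Of the 129 members, 30 were called in at least 1 comparison, 6 in at least 2 and 1 in all 3. Cht10, which encodes a chitinase of cuticle turnover, was the member called in all 3. In the authors' deposited tables, its log2 fold change was −1.15 ± 0.20 in canonical, −0.71 ± 0.19 in H3.3 and −1.60 ± 0.20 in combined K9R, with a mean normalized count of 255.6. Its adjusted p values were 3.3e-07, 0.00846 and 7.7e-14 (DESeq2). Cht10 spans 26.3 kb at 2L:22999574-23025915. In combined K9R its RNA was at 0.331 times the HWT level. The cuticle marker Cpr49Ac was at −0.85, −1.16 and −0.20 in canonical, H3.3 and combined K9R in the authors' deposited tables. The other cuticle marker, Lcp1, went the other way, at 0.84, 0.15 and 0.16 on a mean normalized count of 5.25. The part of cuticle in the Cht10 values was not tested.

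**Figure D1:**
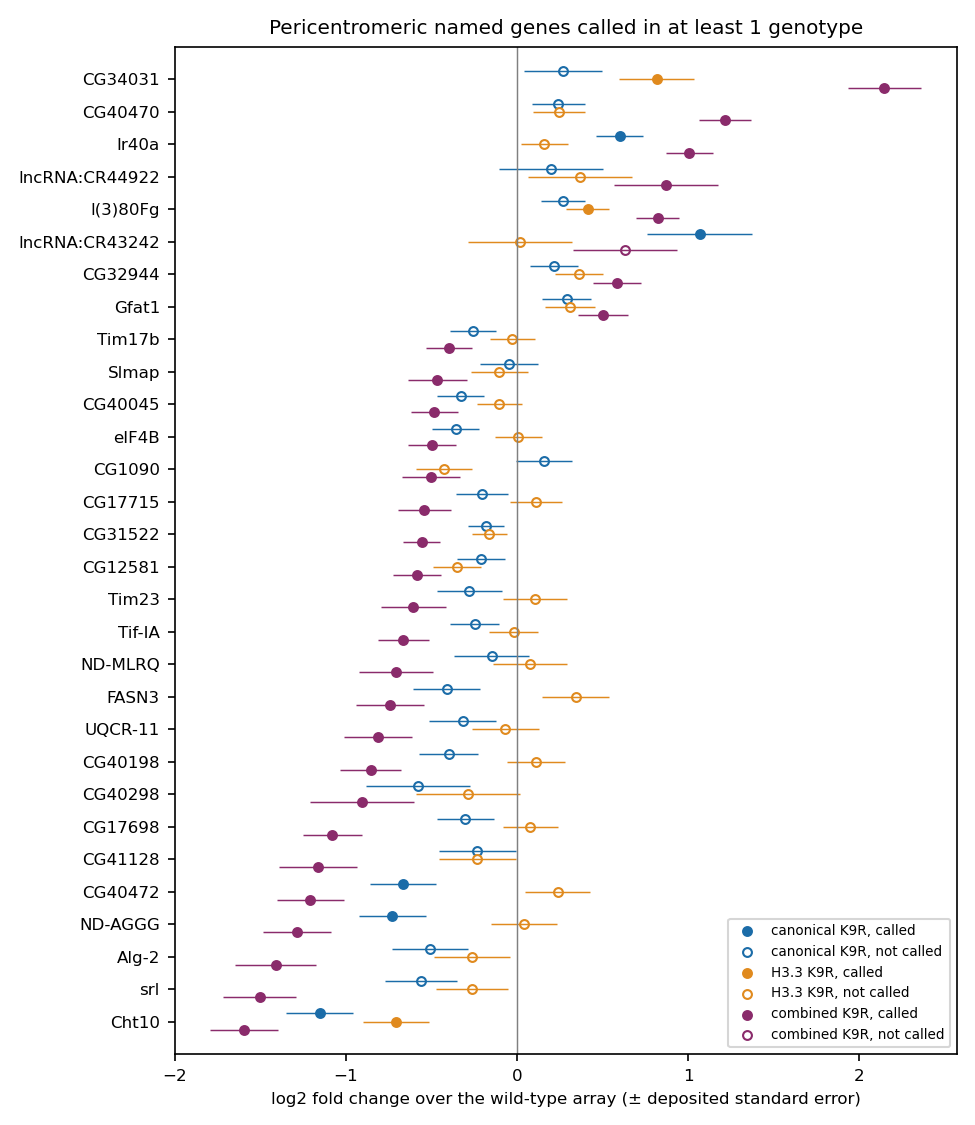
Log2 fold change over HWT, as the authors deposited it, for the members called in at least 1 RNA comparison, with bars of 1 SE and filled points for called values. The 22 members called lower in combined K9R run from Cht10 and srl to Tim17b, and the 7 called higher are led by CG34031.

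The 7 members that rose in combined K9R were CG34031, CG40470, Ir40a, lncRNA:CR44922, l(3)80Fg, CG32944 and Gfat1. CG34031, at 3L:23174446-23185750, had log2 fold changes of 0.27 ± 0.23 in canonical, 0.82 ± 0.22 in H3.3 and 2.15 ± 0.22 in combined K9R larvae by the authors' deposited tables. The call was made in H3.3 K9R (adjusted p = 0.00742) as well as combined K9R (3.3e-21, DESeq2). In the latter its RNA was 4.43 times the HWT level. Its locus also holds lncRNA:CR43967.

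Ir40a encodes an ionotropic receptor used in humidity sensing and spans 24.9 kb at 2L:22189526-22214376. Its deposited log2 fold changes were 0.60 ± 0.14 in canonical, 0.16 ± 0.14 in H3.3 and 1.00 ± 0.14 in combined K9R larvae by the authors' deposited tables. Ir40a rose in canonical K9R (adjusted p = 6.9e-04) and in combined K9R (1.1e-11, DESeq2). The mean normalized count at its locus was 4876.3, beside 1930.5 for neuronal nSyb. Which transcript those reads came from was not determined here. The other sensory or neural member of the list, the acetylcholine receptor subunit gene nAChRalpha4, was not called, with −0.13, 0.06 and 0.00 in canonical, H3.3 and combined larvae in the authors' deposited tables. That list is not complete. The members cpx, Syt14 and Dsk, outside it, were not called in any comparison, and Or82a was not tested.

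The longest members are CG40470 (146.6 kb, 3L:23839860-23986410) and l(3)80Fg (215.7 kb, 3L:25798441-26014112), together with CG40006 on 2L. CG40470 was at 0.24 ± 0.15 in canonical and 0.25 ± 0.15 in H3.3 K9R and rose by 1.22 ± 0.15 in combined K9R (adjusted p = 8.5e-14, authors' deposited table, DESeq2). l(3)80Fg was at 0.27 ± 0.13 in canonical K9R and rose by 0.41 ± 0.13 in H3.3 K9R and by 0.82 ± 0.13 in combined K9R (adjusted p = 0.028 and 2.1e-09, authors' deposited tables, DESeq2). CG40006, over 133.9 kb, was not called, with 0.13 ± 0.14, 0.13 ± 0.14 and 0.33 ± 0.14 in the authors' deposited tables. Annotated non-coding RNAs lie inside the loci of CG40470 and l(3)80Fg, and which transcript the reads came from was not determined here.

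Gfat1, the first enzyme of the hexosamine pathway that feeds chitin and glycan synthesis, rose modestly in combined K9R (0.50 ± 0.15, adjusted p = 0.00439, authors' deposited table, DESeq2). CG32944 rose by 0.59 ± 0.14 (adjusted p = 3.4e-04) in the same table of the authors' deposited tables. On 3R, the called genes CG32944 and srl lie 2.90 kb apart and were called in opposite directions. Gfat1 and CG40198 on 3R, 22.7 kb apart, were called in opposite directions as well. CG40298 and CG17698 on 3L, 9.97 kb apart, both fell in combined K9R, as did Tim17b and CG41128 on 3R, 4.95 kb apart.

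Many long non-coding members were too shallow to test, with 9 of 17 tested in canonical K9R and 7 in each of the others. lncRNA:CR43242 on 2L rose in canonical K9R (1.07 ± 0.31, adjusted p = 0.0168) and was at 0.63 in combined K9R (adjusted p = 0.117), in the authors' deposited tables (DESeq2). lncRNA:CR44922 on 3R rose in combined K9R (0.87 ± 0.31, adjusted p = 0.0225, authors' deposited table, DESeq2). Their mean normalized counts were 21.2 and 51.2.

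A list of 10 members with roles in mitochondria was drawn up after the values were seen and is a description. It holds the respiratory-chain subunit genes ND-AGGG, ND-MLRQ and UQCR-11, the inner-membrane translocase genes Tim23 and Tim17b, and srl, the fly homologue of the PGC-1 coactivators of mitochondrial gene expression. The rest are Coa7, a respiratory-chain assembly gene, Nubpl, an assembly gene of complex I, Suv3, a mitochondrial RNA helicase, and Lipt2, a lipoyl transferase. In combined K9R 6 of 10 fell and 0 rose, with a median log2 fold change of −0.61, where 20.6% of all members tested and 13.6% of all loci were called lower. Because the genes were listed after their values were seen, nothing particular to mitochondria can be read from this count. In canonical K9R 1 of 10 fell (median −0.27), and in H3.3 K9R 0 were called (median −0.02).

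srl, at 3R:4422483-4429335, fell by 1.50 ± 0.21 in combined K9R (adjusted p = 7.0e-11) and was at −0.56 ± 0.21 in canonical and −0.27 ± 0.21 in H3.3 K9R in the authors' deposited tables (DESeq2). Its RNA was thus at 0.353 times the HWT level, in a locus that also holds CG31525. ND-AGGG, at 3L:24976254-24977118, fell by 0.73 ± 0.20 in canonical K9R (adjusted p = 0.00716) and was at 0.04 ± 0.19 in H3.3 K9R, in the authors' deposited tables (DESeq2). In combined K9R it was at 0.411 times the HWT level, with a log2 fold change of −1.29 ± 0.20 (adjusted p = 3.3e-09, authors' deposited table, DESeq2).

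UQCR-11 fell by 0.81 ± 0.20 (adjusted p = 4.7e-04), ND-MLRQ fell by 0.71 ± 0.22 (0.00757), Tim23 fell by 0.61 ± 0.19 (0.00943) and Tim17b fell by 0.40 ± 0.14 (0.0179) in combined K9R larvae by the authors' deposited table (DESeq2). The 4 that were not called in combined K9R had values of −0.61 for Lipt2, −0.52 for Suv3, −0.34 for Coa7 and 0.07 for Nubpl, in the authors' deposited table. The locus of Tim23 also overlaps Gpb5, and that of ND-MLRQ holds mir-4942.

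Other lower members in combined K9R had varied roles. Alg-2, a calcium-binding protein of the penta-EF-hand family, fell by 1.41 ± 0.23 (adjusted p = 4.8e-08), and Tif-IA, an initiation factor of RNA polymerase I, fell by 0.67 ± 0.15 (1.0e-04), in the authors' deposited table (DESeq2). FASN3, a fatty acid synthase gene, fell by 0.74 ± 0.20 (0.0015), and CG31522, a fatty acid elongase gene, fell by 0.56 ± 0.11 (2.6e-06), in the authors' deposited table (DESeq2). Slmap, a component of the STRIPAK phosphatase complex, fell by 0.47 ± 0.17 (0.0299, authors' deposited table, DESeq2).

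Genes known only by number made up much of the rest. CG40472, at 3L:24927130-24927710, fell by 0.67 ± 0.19 in canonical K9R (adjusted p = 0.0182), was at 0.24 ± 0.19 in H3.3 K9R and was at −1.21 ± 0.20 in combined K9R (2.1e-08), in the authors' deposited tables (DESeq2). It lies 48.6 kb from ND-AGGG, and both were called lower in canonical and combined K9R. CG41128 fell by 1.16 ± 0.23, CG17698 fell by 1.08 ± 0.17, CG40298 fell by 0.91 ± 0.30 and CG40198 fell by 0.86 ± 0.18 in combined K9R (adjusted p = 6.8e-06, 1.2e-08, 0.016 and 2.1e-05, authors' deposited table, DESeq2). CG12581, CG17715, CG1090 and CG40045 also fell, with log2 fold changes from −0.59 to −0.48 in the authors' deposited table.

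Some long-known residents of heterochromatin were not called in any comparison. For lt the log2 fold changes were −0.18 ± 0.15, −0.11 ± 0.15 and −0.35 ± 0.16 in canonical, H3.3 and combined K9R (adjusted p = 0.858, 0.923 and 0.0889, authors' deposited tables, DESeq2). cta, which encodes a G protein alpha subunit of gastrulation, was at −0.23 ± 0.15, 0.00 ± 0.15 and −0.22 ± 0.15 in the authors' deposited tables. CkIIalpha, the catalytic subunit of casein kinase 2, was at −0.21, −0.09 and −0.28 in the authors' deposited tables. Of the signalling and trafficking list, 4 genes were members. Of these 1, Gfat1, was called, in combined K9R alone, where 25.0% of all loci were called.

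The list of chromatin and nuclear factors had 5 members, with 0 called in any comparison. Of all loci, 3.55%, 4.31% and 25.0% were called in canonical, H3.3 and combined K9R, so 0 of 5 is not read as a difference. vtd, the Rad21 subunit of cohesin, was at −0.01, 0.02 and −0.05 with errors of 0.14, and Set1, a methyltransferase of H3K4, was at −0.04, 0.16 and −0.08 with errors of 0.13, in the authors' deposited tables. scro (a homeobox gene), su(f) (a factor in the cleavage of mRNA 3′ ends) and ATbp lay between −0.23 and 0.13 in the authors' deposited tables. A p that misses the threshold does not show that a level did not differ.

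Among translation genes, 3 of the list were members and 1 was called, in combined K9R alone, where 25.0% of all loci were called. eIF4B, a translation initiation factor, fell by 0.50 ± 0.14 in combined K9R (adjusted p = 0.0025) and was at −0.36 ± 0.14 in canonical K9R (0.186), in the authors' deposited tables (DESeq2). The ribosomal protein genes RpL5 and RpL15 were at 0.07 ± 0.11 and −0.22 ± 0.12 in combined K9R and were not called, in the authors' deposited table. The list does not hold every translation gene among the members. RpL10, RpL21 and eIF3a, outside it, were at −0.19, −0.20 and 0.02 in combined K9R and were not called in any comparison. The loci named for 28S rRNA and 5.8S rRNA on X belong to repeated units, so reads cannot be assigned to a single copy, and neither was called.

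Of the members, 17 had no adjusted p in any table and 5 more had one for canonical K9R alone. These 22 members had mean normalized counts with a median of 1.60 and a highest value of 6.84. Another 77 members were tested in all 3 comparisons and called in none. At an unadjusted p under 0.05 there were 17 members in canonical (15.2%, against 9.65% of all loci tested), 9 in H3.3 (8.41%, against 11.6%) and 37 in combined K9R (34.6%, against 35.5%), by the authors' deposited tables.

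The calls are given by chromosome arm as a description, with no test between arms. In combined K9R 6 of 24 members tested on 2L were called, 12 of 30 on 3L (40.0%), 11 of 42 on 3R (26.2%) and 0 of 11 on X, beside 25.0% of all loci. In canonical K9R the 5 called members were 3 on 2L and 2 on 3L, and in H3.3 K9R they were 1 on 2L and 2 on 3L. On 3R, 0 of 44 members were called in canonical and 0 of 42 in H3.3 K9R. Of all loci, 3.55% were called in canonical and 4.31% in H3.3 K9R, so 0 calls on 3R is not read as a difference. With 11 members on X, a small share of calls there could not be seen.

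**Figure D2:**
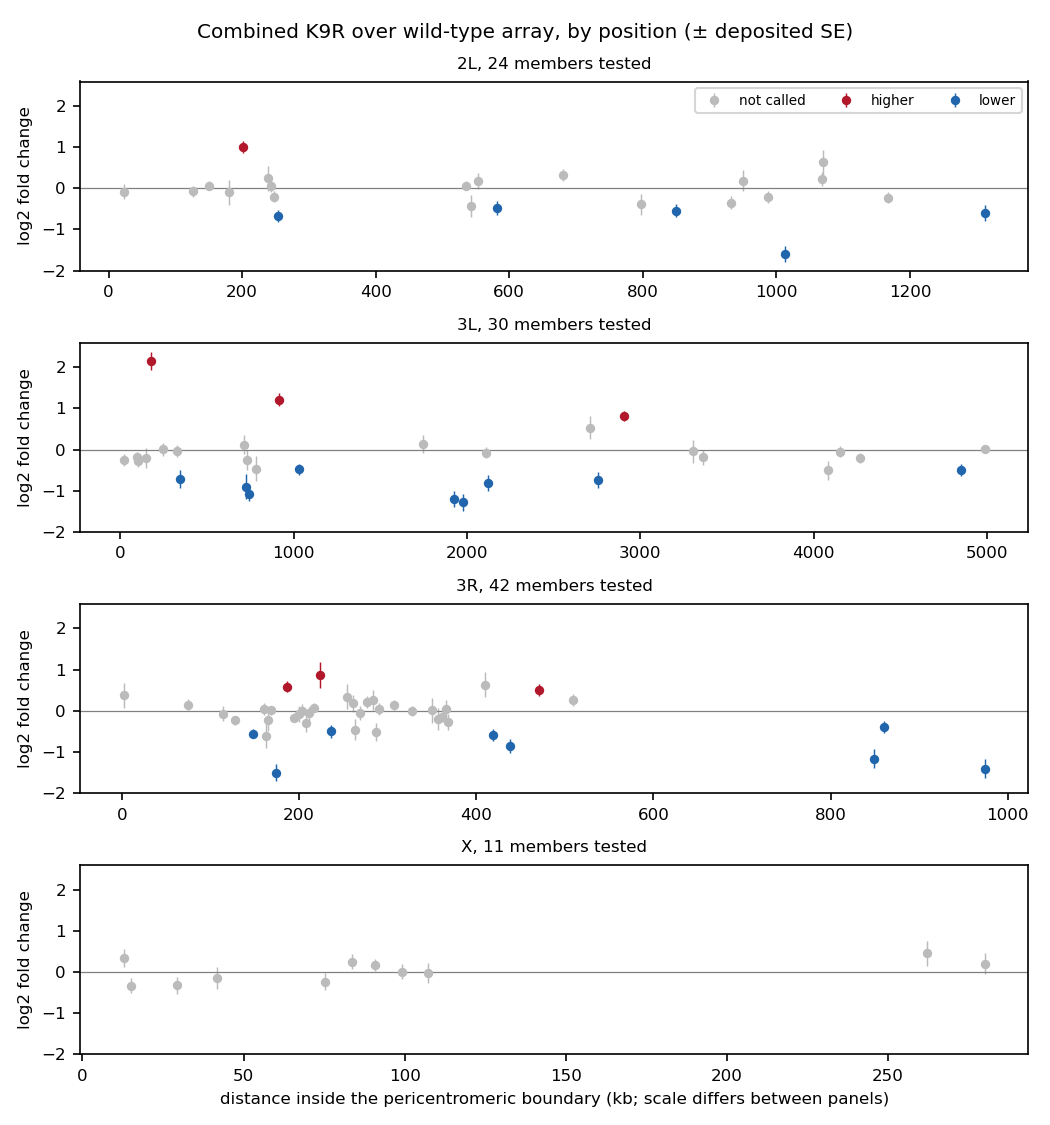
Log2 fold change in combined K9R over HWT, as the authors deposited it, against distance inside the boundary of each arm. Colour tells called members from the others. In combined K9R, called members are seen on 2L, 3L and 3R, and 0 of 11 members on X were called.

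Genes close to each boundary, inside and outside it, are given as a description. On 2L, CG31693 was the member nearest the boundary and had no adjusted p. The next member inside, tio, was at −0.08 in combined K9R. CG2528 outside the 2L boundary rose by 0.52 in combined K9R (adjusted p = 0.00222, authors' deposited table, DESeq2). On 3L, nrm inside was at −0.25 and lncRNA:CR45758 outside at 0.43, and on X, Rab21 inside was at 0.34 and stnA outside at 0.24, in the authors' deposited table. On 3R, lncRNA:CR44317 inside was at 0.37 and 5-HT2A outside at 0.03 in the authors' deposited table. Nearest to the required overlap were Tim23, which met it, and aux, whose locus did not and which rose by 0.90 in combined K9R (adjusted p = 1.9e-23, authors' deposited table, DESeq2).

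Moving all boundaries by 1 Mb towards the centromere left 23 members, of which 9 of 21 were called in combined K9R (42.9%, against 25.0% of all loci), 1 higher and 8 lower. In canonical K9R the deeper set had 4 of 22 called (18.2%, against 3.55%), and in H3.3 K9R 2 of 21 (9.52%, against 4.31%). These sets are small and were not tested against the rest. The deeper set lies on 2L and 3L only, as the deepest member on 3R, Alg-2, is 974.6 kb inside its boundary. Within the boundaries of the rule, 40.0% of members tested on 3L were called in combined K9R. Depth and arm cannot be told apart here. Moving the boundaries by 1 Mb into the arms gave 472 members, of which 96 of 367 were called in combined K9R (26.2%, against 25.0%). That wider set holds the histone cluster on 2L. Copies of His3 made up 15 of its 96 calls in combined K9R and 15 of its 24 calls in canonical K9R.

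Gene length was compared next, since long genes on the arms were more often higher in combined K9R and short genes more often lower. Among named arm loci tested, Spearman's rho between gene length and log2 fold change in combined K9R was 0.37 over 6791 loci, while among the members it was 0.04 over 107. With a mean normalized count of at least 100, rho was 0.46 over 4745 arm loci and 0.20 over 79 members. Genes are not independent replicates, long genes also gather more reads, and these values are descriptions with no test. In canonical K9R rho was 0.21 on the arms and 0.00 among members, and 0.32 and 0.20 at a mean normalized count of at least 100. In H3.3 K9R it was 0.05 and −0.01, and 0.13 and 0.02 at that depth.

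**Figure D3:**
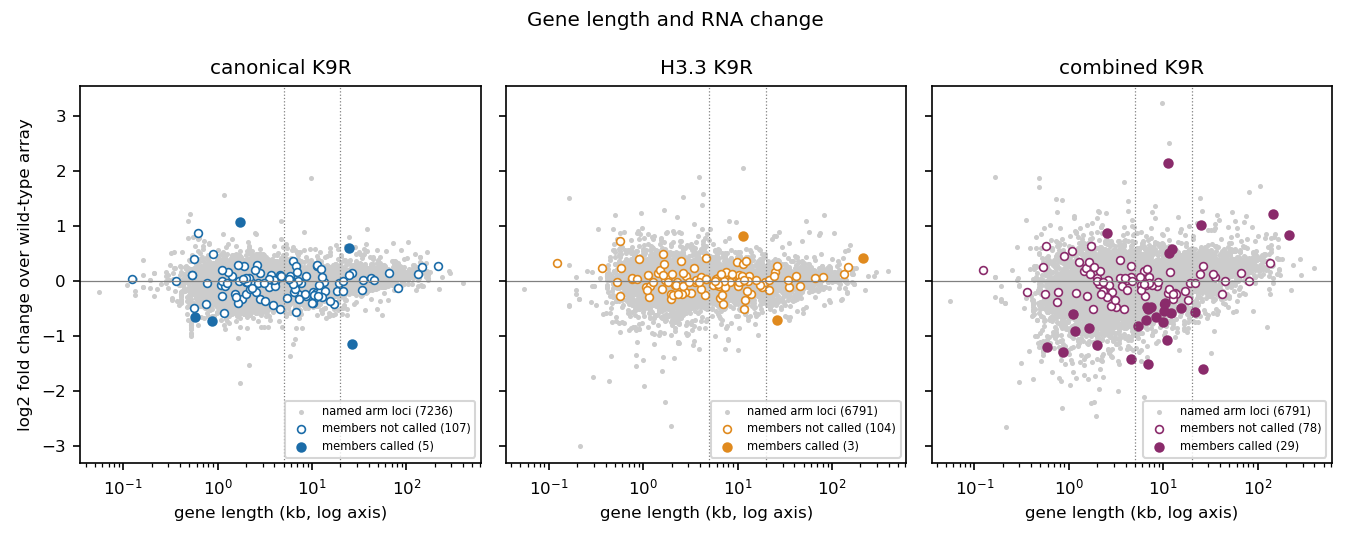
Log2 fold change over HWT, as the authors deposited it, against gene length in kb (log axis), for members and for named arm loci. The panels show canonical, H3.3 and combined K9R, with filled points for called members and grey points for arm loci. In combined K9R the arm points drift upward with length (rho = 0.37), while members of 5 to 20 kb lie mostly below 0.

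More of the members of 5 to 20 kb were called lower than of arm genes of their length, a difference that was not tested. In combined K9R, 13 of 40 such members fell (32.5%) and 3 rose (7.50%), whereas 9.80% of 1908 arm loci of that length fell and 9.91% rose. The median log2 fold change was −0.22 for the members and 0.04 for the arm loci, and 32 of the 40 members were below 0. Depth was alike, with a median mean normalized count of 420.8 for members and 432.1 for arm loci and median errors of 0.155 and 0.154. srl, CG17698, UQCR-11, FASN3, ND-MLRQ, Tif-IA and eIF4B are among the 13 that fell, while CG34031, Gfat1 and CG32944 are the 3 that rose. In canonical K9R 0 of 40 members of this length were called, and their median was −0.17 beside 0.00 on the arms.

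Members under 5 kb were closer to arm genes. In combined K9R 7 of 52 fell (13.5%, against 18.9% of 3991 arm loci) and 1 rose (1.92%, against 3.61%), with medians of −0.07 and −0.13. These 7 are Alg-2, ND-AGGG, CG40472, CG41128, CG40298, CG40198 and Tim23, and the 1 that rose is lncRNA:CR44922.

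Of 15 members of 20 kb or more, 3 rose and 2 fell (13.3%), whereas 24.7% of 892 arm loci of that length rose and 2.35% fell. The 3 that rose are Ir40a, CG40470 and l(3)80Fg, and the 2 that fell are Cht10 and CG31522. Medians were 0.13 for the members and 0.22 for the arm loci. In canonical K9R, Ir40a rose and Cht10 fell, while 30 of 893 arm loci of that length rose and 0 fell.

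The 22 members that fell in combined K9R had a median length of 6.91 kb (from 0.581 to 26.3 kb), and the lower arm loci had a median of 2.32 kb. The 7 that rose had a median of 12.4 kb (from 2.52 to 215.7 kb), against 13.9 kb for higher arm loci. Without the members on 3R, 9 of 28 members of 5 to 20 kb fell and 1 rose, and rho over all 65 was 0.07.

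**Figure D4:**
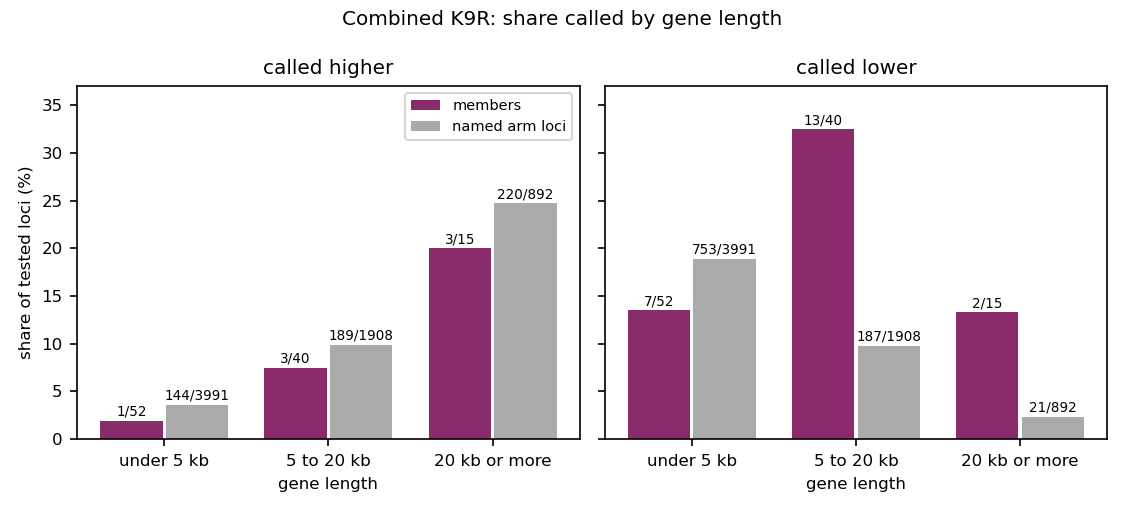
Percent of loci called higher and lower in combined K9R in each class of gene length, for members and for named arm loci, with the number called of the number tested. In the class of 5 to 20 kb, 32.5% of members and 9.80% of arm loci were called lower.

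The differences between genotypes were then tested locus by locus, as the difference of deposited log2 fold changes over the root of their summed squared errors (two-sided normal test with Benjamini-Hochberg adjustment over 10072 loci). As the comparisons share the HWT libraries, this error is too large. Combined exceeded canonical K9R at CG34031, by 1.88 ± 0.31 on the log2 scale (adjusted p = 9.2e-07), and at CG40470, by 0.98 ± 0.22 (8.9e-04), which are 2 of 128 members (1.56%, against 1.58% of all loci). Between combined and H3.3 K9R 12 of 128 members differed (9.38%, against 3.42% of all loci).

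CG34031, CG40470 and Ir40a were higher in combined than in H3.3 K9R, by 1.33 ± 0.31, 0.97 ± 0.22 and 0.85 ± 0.19 on the log2 scale. The 9 that were lower were CG40472 (−1.45), ND-AGGG (−1.33), srl (−1.24), CG17698 (−1.16), Alg-2 (−1.15), FASN3 (−1.09), CG40198 (−0.97), Cht10 (−0.89) and Tif-IA (−0.65), with errors of the difference from 0.21 (Tif-IA) to 0.32 (Alg-2) and adjusted p values up to 0.0491. Canonical and H3.3 K9R differed at 0 members after adjustment (7 of 128 at an unadjusted p under 0.05), and at 1.19% of all loci. The combined change departed from the sum of the single changes at 0 members (5 of 128 at an unadjusted p under 0.05), and at 0.149% of all loci.

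With the shared control taken out of the error, the numbers were 10, 21, 6 and 1 for these 4 tests. The shares of all loci were 6.56%, 12.3%, 3.49% and 0.725%. For this, the smallest squared error was subtracted whole from the sum, which sets the control's share at 50% of it. The 10 that then differed between combined and canonical K9R include srl (−0.94), Alg-2 (−0.90), CG41128 (−0.93), CG17698 (−0.78), l(3)80Fg (0.55) and Ir40a (0.41). CG17698 is the 1 member whose combined change then departed from the sum, by −0.85 ± 0.24 (adjusted p = 0.0472, normal test with Benjamini-Hochberg adjustment over all loci).

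Open chromatin at the members was measured in another tissue, stage and set of genotypes, so it is set beside the RNA values without a test. The 3 comparisons over wild type share the wild-type libraries. Of 19738 FAIRE regions, 85 overlapped 49 of the members, and 80 members had none. A region was called in at least 1 of the authors' deposited tables at 14 of the 85 (16.5%), against 14.2% of all regions, a share near the background. In the H3.3A null over wild type 11 of 85 were called (12.9%, against 8.80% of all regions), and in H3.3B-K9R 2 of 85 (2.35%, against 6.53%). The double mutant had 7 of 85 called over wild type (8.24%, against 7.92%) and 7 over the H3.3A null (8.24%, against 6.50%).

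The 14 called regions lay at 7 members, namely l(3)80Fg, CG40470, CG40006, CG32944, CG42402, Vps24 and CG17167. l(3)80Fg had 11 regions, 5 of them called. At 3L:25902729-25903423, inside l(3)80Fg, the FAIRE log2 fold change was −1.05 ± 0.13 in the H3.3A null (adjusted p = 1.3e-14), −0.04 ± 0.12 in H3.3B-K9R and −0.13 ± 0.12 in the double mutant, in the authors' deposited tables (DESeq2). Signal at this region was lower in the H3.3A null, and the double mutant was above the H3.3A null by 0.93 ± 0.13 (adjusted p = 1.4e-11, authors' deposited table, DESeq2).

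A second region of l(3)80Fg, 3L:25804050-25804151, rose by 1.16 ± 0.23 in H3.3B-K9R and by 1.05 ± 0.23 in the double mutant (adjusted p = 2.1e-05 and 1.7e-04, authors' deposited tables, DESeq2). It was at 0.17 ± 0.24 in the H3.3A null, in the authors' deposited table. At 3L:25920939-25921382 the signal rose by 0.56 ± 0.16, 0.48 ± 0.16 and 0.96 ± 0.16 in the H3.3A null, in H3.3B-K9R and in the double mutant (adjusted p = 0.00633, 0.0447 and 2.6e-08, authors' deposited tables, DESeq2). Regions within this single gene thus changed in opposite directions.

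At CG40470, region 3L:23849030-23849459 rose by 0.89 ± 0.11 in the H3.3A null (adjusted p = 8.1e-15), with −0.20 ± 0.11 in H3.3B-K9R and 0.03 ± 0.11 in the double mutant, in the authors' deposited tables (DESeq2). A second called region of CG40470, 3L:23887442-23887550, went the other way, at −0.67 ± 0.22 in discs without H3.3A (adjusted p = 0.0332). Its signal was higher in the double mutant than in that null by 0.70 ± 0.22 (0.0221, authors' deposited tables, DESeq2). At CG40006, 2L:22677965-22678235 rose by 1.03 ± 0.20 in the null and by 1.06 ± 0.20 in the double mutant (adjusted p = 7.9e-06 and 3.3e-06, authors' deposited tables, DESeq2). A region of CG32944, 3R:4409137-4409356, fell by 0.85 ± 0.20 in the null and by 0.64 ± 0.20 in the double mutant (4.8e-04 and 0.0188, authors' deposited tables, DESeq2). The regions at Ir40a, Cht10 and Gfat1, members with called RNA changes, were not called. The gene table gives spans only, so whether a region is exonic or intronic was not determined here.

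**Figure D5:**
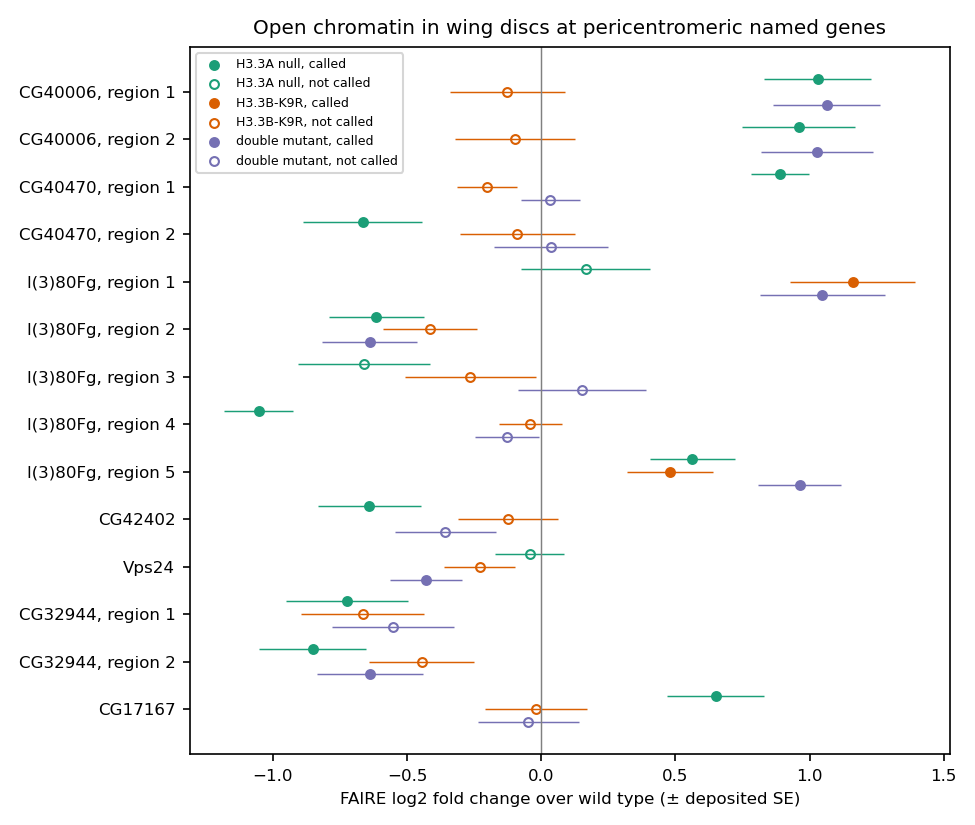
FAIRE log2 fold change over wild type in wing discs, as the authors deposited it, with bars of 1 SE, for the 14 regions at members called in at least 1 table (regions of a gene are numbered by position). Filled points are called values. Regions of l(3)80Fg lie on both sides of 0, while both CG40006 regions were higher in the H3.3A null and the double mutant.

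The effect of the H3.3B mutation was also compared between H3.3A backgrounds, as the double mutant over the H3.3A null minus H3.3B-K9R over wild type, which share no libraries. This test was chosen after the values were seen. It called 3 of 85 regions (3.53%), against 4.85% of all regions, and those 3 lie in l(3)80Fg and CG40470.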

How the data were processed

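RNA was measured in whole larvae and FAIRE signal in wing discs. Groups were read from the labels. Per the labels' protocols, the NuGEN Ovation and Rubicon ThruPLEX kits made the libraries. Tools named in the submitters' processing notes are DESeq2, MACS2, TopHat2 (2.1.1), Bowtie2 (2.3.2) and Cufflinks (2.1.1), with build dm6. How reads with several matches were counted is not given in the sources used here. Repeats near genes could add such reads.

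Per the file headers, the authors deposited a mean normalized count over libraries (a signal never below 0), the log2 fold change, its standard error and the Wald statistic (scores), and p-values with Benjamini-Hochberg adjustment. No column held a single library, so depth is unknown and no new fit was made.

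RNA loci were named from RefSeq's Release 6 table at 50% or more of joint span. A FAIRE region belonged to a member when it overlapped its gene. Difference tests were computed from the deposited fold changes and errors in Python 3.11.15 with scipy 1.17.1. The test of combined minus canonical K9R was tried on simulated data with independent errors, unlike the real comparisons, which share HWT. The version with the shared control removed, the departure test and the FAIRE test between H3.3A backgrounds were not simulated. Genes named are those called in 2 or more comparisons, the 10 largest called changes in each direction, members of the role lists, those called in the departure test and the 3 longest and 3 shortest members tested. Other genes named were chosen after their values were seen. Members, lists and length classes were chosen with earlier results of these data known. Alternatives covered thresholds, adjustment, low counts, centring, naming, boundaries, shared control and FAIRE flanks.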

Additional observations from a re-analysis of the deposited data

Results flagged for a closer look

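In wing discs, the FAIRE change tied to the H3.3B mutation differed between flies with and without H3.3A at 3 regions of members, where 4.85% of all regions differed. At CG40470, region 3L:23849030-23849459, the difference (null background minus wild-type background) was −0.65 ± 0.15 on the log2 scale (SE, adjusted p = 7.7e-04, normal test with Benjamini-Hochberg adjustment over all regions). At l(3)80Fg, region 3L:25902729-25903423, the difference was 0.97 ± 0.17 (adjusted p = 1.4e-06 by the same test over all regions). At l(3)80Fg, region 3L:25899717-25899832, the difference was 1.08 ± 0.34 (adjusted p = 0.038 by the same test over all regions), on a mean normalized count of 24.5. The test was chosen after the values were seen.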

How the results depend on the processing

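No paired analysis was possible because the deposited tables hold no values per library, and leaving out single libraries could not be run for the same reason. The called members were 5 in canonical, 3 in H3.3 and 29 in combined K9R. With an adjusted p under 0.01 canonical K9R had 3, and the called FAIRE regions went from 14 to 9. Under an added fold limit (at least 1 on the log2 scale in either direction) the counts were 2, 0 and 10, and 3 in place of 5 for members of 20 kb or more in combined K9R. With loci that overlap 1 gene there was 1 member in H3.3 K9R, and 2 of 20 kb or more in combined K9R. Boundaries 1 Mb towards the centromere gave 9 in combined K9R, 2 of them 20 kb or more. Boundaries 1 Mb into the arms gave 24, 8 and 96, with 13 of 20 kb or more. Leaving out 3R, an alternative chosen after seeing the data, gave 18 in combined K9R. Removing the shared control moved the difference counts from 2 to 10, 12 to 21, 0 to 6 and 0 to 1. Apart from these 19 counts, the other 43 stayed within 1.5 times. The named genes kept their call in all 102 values under adjustment over every locus and all 102 under recentring. Recentring turned the sign of 3 uncalled values near 0, vtd in canonical K9R (to 0.01) and cta (to 0.02) and lncRNA:CR43765 (to 0.01) in H3.3 K9R. Except for the subsets, whose construction leaves fewer or more genes, the cause was not tested. Shrunken fold changes and unknown depth limit members with few reads.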
